A study of Drosophila melanogaster with 9 samples.

Results

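The genes described here are the chemoreceptor and odorant binding protein families of Drosophila melanogaster, measured in the developing eye. They were chosen by symbol: Gr, Or, Ir or Obp followed by digits and an optional letter, without Gr64a to Gr64f. Of 11983 genes tested, 208 met this rule: 54 gustatory receptors (Gr), 56 odorant receptors (Or), 53 ionotropic receptors (Ir) and 45 odorant binding proteins (Obp). RNA came from eye imaginal discs, larval epithelia from which the adult eye develops, of larvae in the third instar, and was read on 9 Affymetrix Drosophila Genome 2.0 arrays in 3 groups of 3 biological replicates. The genotype of the rbf1 mutant discs was rbf1120a plus Gal4, that of the discs overexpressing PSC is given as w1118 psc, and that of the control discs was w1118 plus Gal4. Rbf is the fly retinoblastoma family protein, PSC is a Polycomb repressive complex subunit, and the question named for the series is what each alteration does to expression relative to control. No label names the driver of Gal4, and for PSC discs Gal4 is not listed. Stock and altered gene cannot be told apart, since each group is its own genotype.

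Flies detect chemicals with sensory neurons of the antenna, the maxillary palp, the legs and the mouthparts. Odorant receptors work as channels together with the coreceptor Orco, gustatory receptors read sugars, bitter compounds and carbon dioxide, and ionotropic receptors descend from glutamate receptors and work with coreceptors such as Ir8a, Ir25a and Ir76b. Odorant binding proteins are small secreted proteins of the sensillum lymph that carry hydrophobic ligands, and several are also made in tissues with no sense of smell. The eye disc is continuous with the antennal disc during larval life.

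Values are log2 intensities, and each gene was read by its brightest probe set with 1 annotated gene. Levels of different genes are not compared with each other, because probe sets differ in brightness. A member was called near background where its highest group mean lay under 5.74, which is 3 SD (0.48 each) above the most common mean level of all genes tested, 4.29. Array medians lay between 5.83 and 5.92 over all probe sets, and arrays correlated (Pearson, across genes) at 0.986 to 0.996 inside groups and 0.980 to 0.994 between them. The number of arrays, 3 per group, limits the precision. Psc was 12.50 ± 0.02 in PSC discs and 9.84 ± 0.03 in control discs, and Rbf was 9.42 ± 0.10 in rbf1 mutant discs, against 9.78 ± 0.10 in control discs (SD, n = 3 each). All 10 eye disc markers and all 6 measured antennal disc markers were above the limit in at least 1 group. The same held for 10 of 10 salivary gland, 10 of 10 haemocyte, 8 of 11 fat body, 7 of 10 brain and neuroblast and 4 of 9 gut markers. The mean of the 10 salivary gland markers ranged from 5.81 to 10.65 in rbf1 mutant arrays, 8.44 to 11.77 in PSC arrays and 6.20 to 12.71 in control arrays; single arrays differed widely in this signal.

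Most members were near background in all groups. This was the case for 178 of the 208 (85.6%), against 34.3% of all genes tested. The receptor families were nearly uniform in this respect: 53 of 54 gustatory, 55 of 56 odorant and 50 of 53 ionotropic receptors were near background, 158 of 163 together (96.9%). The odorant binding proteins differed, with 20 of 45 near background (44.4%) and 25 above the limit. The median level of the 163 receptor genes was 4.08 in rbf1 mutant, 4.12 in PSC and 4.11 in control discs, and that of the 45 odorant binding proteins was 6.25, 6.41 and 6.52 in the same order of groups. Counted group by group, 181 members were under the limit in rbf1 mutant discs, 179 in PSC discs and 181 in control discs. A value near background does not show that a gene is off, since RMA values at this end carry little information on small amounts of RNA.

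**Figure D1:**
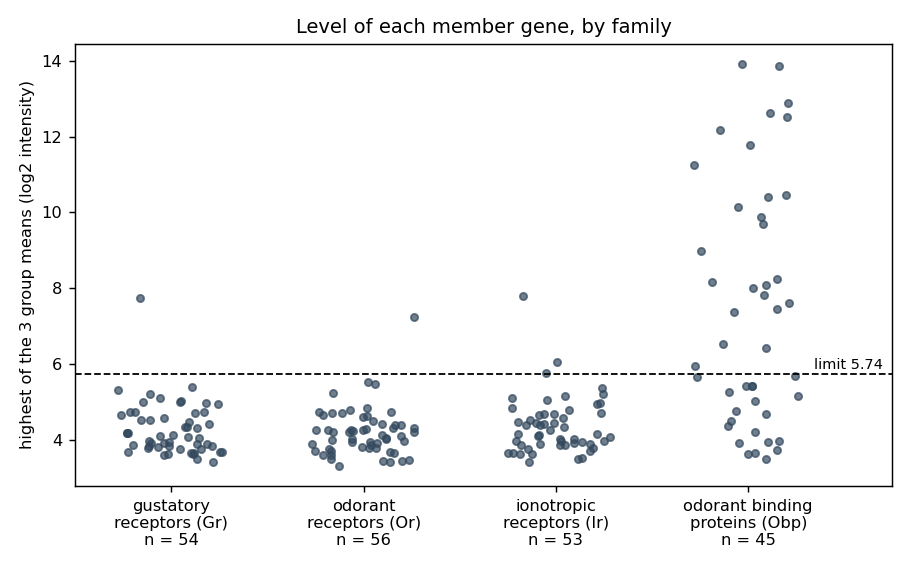
Highest of the 3 group means (log2 intensity) of each of the 208 members, 1 point per gene, by family; the dashed line is the near-background limit of 5.74. Of the receptors, 5 points lie above the line, against 25 of the 45 odorant binding proteins.

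Of the 30 members above the limit, 26 were above it in all 3 groups. Those nearest to the line were Obp19a (5.67) and Obp8a (5.65) below it and Ir68b (5.77) and Obp19c (5.93) above it, as highest group means. The receptors above the line in all groups were Gr61a, Or43b and Ir68a. Or43b, a receptor of the adult antenna, stood at 7.25 ± 0.18 in rbf1 mutant, 7.19 ± 0.11 in PSC and 7.18 ± 0.05 in control discs (SD, n = 3). Ir68a, needed for the sensing of moist air, stood at 5.81 ± 0.08, 6.05 ± 0.13 and 5.98 ± 0.16 in the same groups. Neither passed in any comparison, and the 95% interval of the difference from control ran from -0.14 to 0.29 in rbf1 mutant and from -0.21 to 0.23 in PSC discs for Or43b.

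The coreceptors of the ionotropic family were all near background. Ir25a stood between 4.73 and 5.13 in rbf1 mutant arrays, between 4.96 and 5.15 in PSC arrays and between 4.82 and 5.33 in control arrays. Ir76b stood between 5.31 and 5.44 on all arrays, Ir8a between 4.85 and 5.14 and Ir93a between 4.76 and 5.05. The groups of each coreceptor overlapped in all comparisons and none passed (limma adjusted p from 0.293 to 0.963). Orco, the odorant coreceptor, which the symbol rule leaves out, was near background as well, at 4.87 ± 0.22 in rbf1 mutant, 5.07 ± 0.27 in PSC and 5.10 ± 0.21 in control discs (SD, n = 3).

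Across the comparisons 10 members passed the test, 7 of them odorant binding proteins, with 1 receptor from each of the other families, and 198 passed in none. Against control, 5 members passed in rbf1 mutant discs (1 higher, 4 lower), or 2.40% of the 208, where 10.2% of all genes did (6.31% higher, 3.92% lower). In PSC discs 5 passed against control (2 higher, 3 lower), also 2.40%, where 3.8% of all genes did (1.42% higher, 2.38% lower). Between rbf1 mutant and PSC discs 8 passed (3 higher in rbf1 mutant discs, 5 lower), or 3.85%, where 10.6% of all genes did (6.91% higher, 3.66% lower). The counts by family are small, and the differences of their shares from all genes were not tested. Of the 45 odorant binding proteins, 4 (8.89%) passed in rbf1 mutant and 3 (6.67%) in PSC discs against control, and 6 (13.3%) between the altered groups. Their share was under that of all genes in the first of these and above it in the others, on counts too small to read as a difference. Obp19c is among those called in the latter comparisons, and each of its calls was kept in 4 of 14 alternatives. Of the 163 receptors, nearly all near background, 1 (0.613%) passed in rbf1 mutant against control and 2 (1.23%) in each of the other comparisons. With each array centred on its median the splits were 0 higher and 4 lower in rbf1 mutant against control and 2 higher and 9 lower between the altered groups. Without a test, all values of one group lay above those of the other for 25 members (12.02%) in rbf1 mutant against control, where this held for 28.9% of all genes. The same count was 26 (12.5%) in PSC against control, beside 21.7% of all genes, and 31 members between rbf1 mutant and PSC discs, beside 30.5%. The median log2 fold change of the members was -0.02 in rbf1 mutant and 0.01 in PSC discs against control, beside -0.00422 and 0.00913 over all genes. The 95% interval lay within 1 log2 unit of no change for 202 members in rbf1 mutant discs and for 199 in PSC discs. All of these tests were made with limma over all genes, and the call was an adjusted p under 0.05.

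The ionotropic receptor gene Ir76a showed the largest difference of any member. In the adult it works in antennal neurons that respond to amines such as phenylethylamine. It stood at 7.88, 7.82 and 7.71 in PSC arrays, against 4.78, 4.86 and 4.61 in control arrays, and at 4.93, 4.76 and 4.74 in rbf1 mutant arrays. All PSC arrays were high, and the rbf1 mutant and control arrays overlapped near background. It rose in PSC discs by 3.06 on the log2 scale against control (SE 0.084, limma adjusted p = 7.16e-07). With the control discs set at the near-background limit, since their values lie under it, this is at least 4.17-fold higher. In rbf1 mutant discs the difference from control was 0.06 (95% interval -0.13 to 0.25) and did not pass. An exact two-sided permutation test on Ir76a alone, PSC against control, returned p = 0.1, which is the lowest value possible with 3 arrays a group.

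Ir76a was read by a single probe set, of the type marked _s_at, whose probes may match more than 1 transcript, although the annotation lists 1 gene for it. Of the other 52 ionotropic receptors none passed in any comparison, and those of the coreceptors that may act with Ir76a, Ir25a and Ir76b, were near background in PSC discs too. The nearest measured genes in the RefSeq gene order of Release 6 plus ISO1 MT were SREBP and CG14102 on one side and TORIP and Ccdc58 on the other. In PSC against control discs they stood at -0.02, 0.12, -0.12 and 0.05 on the log2 scale, and none passed.

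Gr61a, a gustatory receptor of sugar-sensing neurons, was lower in both altered groups. It stood at 6.84, 6.99 and 6.63 in rbf1 mutant arrays, 7.32, 7.19 and 7.02 in PSC arrays and 7.63, 7.75 and 7.81 in control arrays. The 3 groups did not overlap. It fell by 0.91 in rbf1 mutant discs (SE 0.107), which is 1.88-fold lower (limma adjusted p = 0.00116). The log2 change in PSC discs was -0.55 (SE 0.107) or 1.47-fold, and passed too (limma adjusted p = 0.0276). The difference between rbf1 mutant and PSC discs, -0.35, did not pass (limma adjusted p = 0.0814). Both comparisons share the control arrays. The PSC call was lost without PSC 2 (0.0888), PSC 3 (0.0793), control 1 (0.0545), control 2 (0.0826) or control 3 (0.083), values being limma adjusted p. It was also lost without moderation of the variance (limma adjusted p = 0.0885). Of the other 53 gustatory receptors, none passed.

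Among the odorant receptors Or47a alone passed, in the comparison of rbf1 mutant with PSC discs. Or47a is a receptor of the adult antenna tuned to esters such as pentyl acetate. It stood at 4.79, 4.72 and 4.85 in rbf1 mutant arrays, against 3.91, 4.18 and 4.26 in PSC arrays, with 4.48, 4.84 and 4.56 in control arrays. The rbf1 mutant arrays were all above the PSC arrays, by 0.67 on average (SE 0.115, limma adjusted p = 0.00754), and all values were under the near-background limit. Against control it stood at -0.51 in PSC discs (limma adjusted p = 0.0509) and at 0.16 in rbf1 mutant discs, and neither passed.

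**Figure D2:**
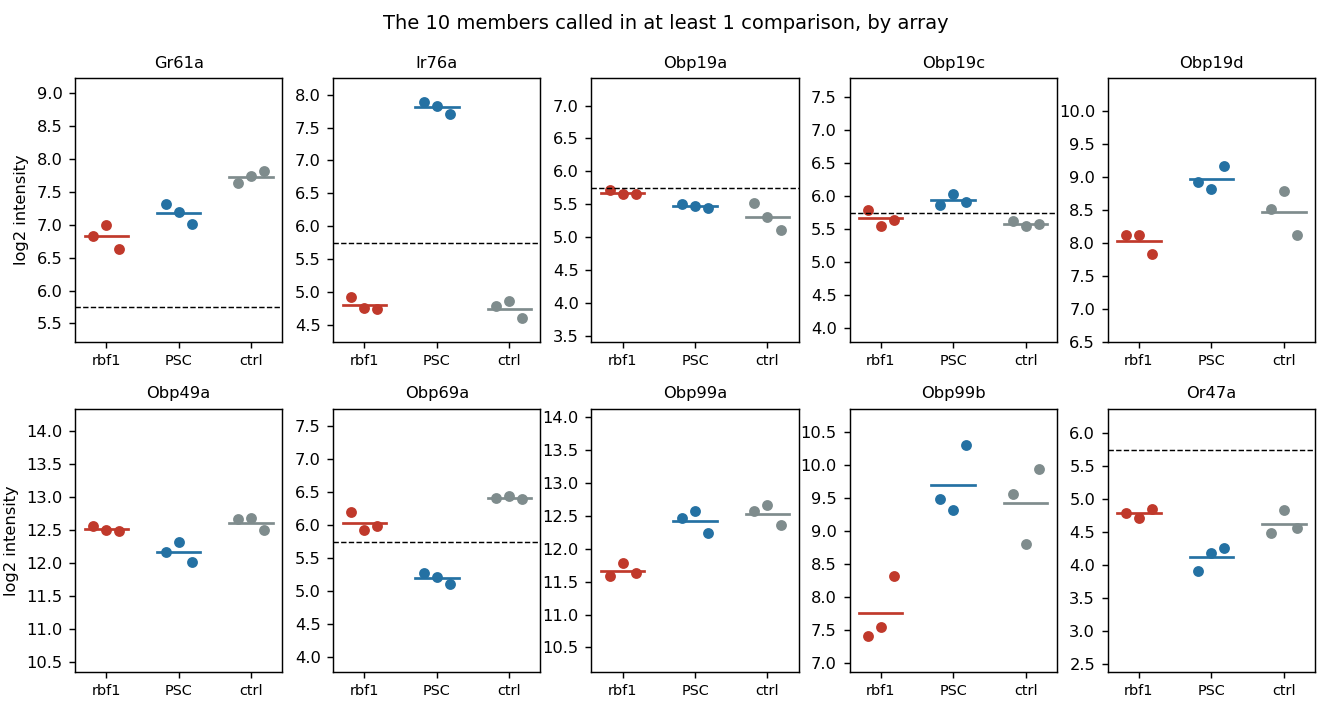
Log2 intensity of the 10 members that passed in at least 1 comparison, with 1 point per array for rbf1 mutant (left), PSC (middle) and control (right, ctrl), a bar at each group mean and the near-background limit dashed where it falls in the panel. Each panel has its own axis, which spans at least 4 log2 units. Ir76a is high in the 3 PSC arrays, Obp69a is low there, and Obp99a and Obp99b are low in the 3 rbf1 mutant arrays.

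Among the odorant binding protein genes that passed against control, the largest falls were those of Obp99b and Obp99a in rbf1 mutant discs and of Obp69a in PSC discs. Obp69a, which acts in the adult response to the pheromone cis-vaccenyl acetate, stood at 5.27, 5.21 and 5.10 in PSC arrays, against 6.41, 6.44 and 6.40 in control arrays, and at 6.19, 5.93 and 5.99 in rbf1 mutant arrays. The groups did not overlap, with PSC lowest. Its log2 change in PSC discs was -1.23 (SE 0.075, limma adjusted p = 0.000106). The PSC values lie under the near-background limit, and with PSC discs set at that limit the level was at least 1.59-fold lower. The log2 change in rbf1 mutant discs was -0.38 (SE 0.075) and passed as well (limma adjusted p = 0.0146). The difference between rbf1 mutant and PSC discs was 0.85 and passed (limma adjusted p = 0.000265). The call in rbf1 mutant discs was lost without rbf1 2 (0.0549) or rbf1 3 (0.0564).

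Obp99a stood at 11.59, 11.79 and 11.62 in rbf1 mutant arrays, against 12.57, 12.67 and 12.36 in control arrays, and at 12.47, 12.57 and 12.23 in PSC arrays. The rbf1 mutant arrays were all lower than the others, and PSC and control arrays overlapped. It fell by 0.87 in rbf1 mutant discs against control (SE 0.109, limma adjusted p = 0.00159), 1.82-fold lower, and stood 0.76 lower than in PSC discs (limma adjusted p = 0.00328). In PSC discs the difference from control was -0.11, with a 95% interval from -0.36 to 0.14.

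Obp99b stood at 7.41, 7.55 and 8.31 in rbf1 mutant arrays, against 9.57, 8.80 and 9.94 in control arrays, and at 9.49, 9.32 and 10.31 in PSC arrays. The rbf1 mutant arrays lay below all others, with a wide spread inside each group. It fell by 1.68 in rbf1 mutant discs against control (SE 0.373, limma adjusted p = 0.0247), 3.20-fold lower. It was also lower than in PSC discs, at -1.95 (SE 0.373, limma adjusted p = 0.0122), and PSC discs differed from control by 0.27 without passing. The call against control was lost without rbf1 1 (0.0865), rbf1 2 (0.0884), control 1 (0.0784) or control 3 (0.071). It was also lost with the salivary glue gene mean as a covariate (0.0638) and without moderation of the variance (0.0766). The call against PSC was lost without rbf1 1 (0.0508) or rbf1 2 (0.0511).

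Fat body markers were read on the same arrays. The mean of the 11 measured markers was 7.23, 7.21 and 7.77 in rbf1 mutant arrays, 7.85, 7.66 and 8.16 in PSC arrays and 7.71, 7.56 and 7.996 in control arrays, and the groups overlapped. In each group replicate 3 was the highest for this mean and for Obp99b. For Obp99a, replicate 3 was the lowest in PSC and control discs and not the highest in rbf1 mutant discs. In rbf1 mutant against control discs 1 of the 11 markers was higher (Yp2, 0.34) and 3 were lower (Apoltp at -0.43, fat-spondin at -0.86 and Cyp4e2 at -0.56), with a median of -0.43, and 7 did not pass. In PSC against control discs Cyp4e2 was lower (-0.60) and the median was 0.08. Between rbf1 mutant and PSC discs 1 of the 11 markers was called lower and none higher, with a median of -0.10. Fbp2 was 2.21 lower in rbf1 mutant than in PSC discs. Of 10 haemocyte markers, 3 fell in rbf1 mutant against control (NimC2 at -1.08, PPO1 at -1.25 and PPO2 at -1.10) and 7 did not pass, where 3.92% of all genes fell. Between rbf1 mutant and PSC discs 3 of the 10 haemocyte markers were lower and 0 higher, with a median of -0.22, where 3.66% of all genes were lower. The mean of the 10 was 9.05 to 9.43 in rbf1 mutant, 9.65 to 9.97 in PSC and 9.37 to 9.87 in control arrays. The rbf1 mutant and control arrays overlapped in this mean, and the rbf1 mutant arrays lay below all PSC arrays. In bulk samples, fewer cells of a type and less RNA per cell cannot be told apart, and the part of fat body and haemocyte RNA in the Obp99a and Obp99b results was not tested.

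**Figure D3:**
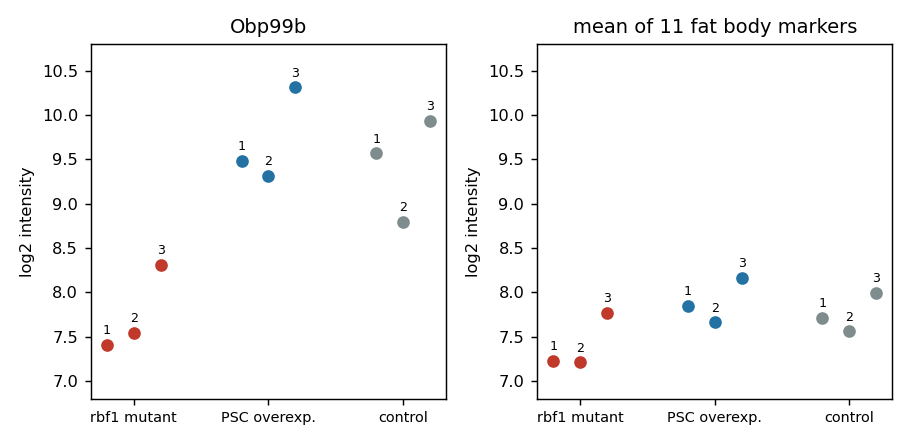
Log2 intensity of Obp99b (left panel) and the mean log2 intensity of 11 fat body markers (right panel), 1 point per array with its replicate number, for rbf1 mutant, PSC overexpression and control discs. Replicate 3 is highest in each group in both panels, and the rbf1 mutant arrays of Obp99b, at 7.41 to 8.31, lie below the 6 others.

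On one side of Obp99b, the nearest 2 measured genes were lower than control in both altered groups. Obp99b itself passed against control in rbf1 mutant discs only. CG34296 stood at 6.48, 6.50 and 6.05 in rbf1 mutant arrays, 8.14, 6.61 and 7.58 in PSC arrays and 8.85, 9.64 and 9.33 in control arrays. It fell by 2.93 in rbf1 mutant (limma adjusted p = 0.00154) and by 1.83 in PSC discs (limma adjusted p = 0.0318). CG15506, between Obp99b and CG34296 in the gene order, fell by 0.87 and by 1.01 in the same comparisons (limma adjusted p = 0.00534 and 0.00632). On the other side Dup99B and Obp99d did not pass against control. The neighbours of all 10 called members came to 36 distinct genes. Of these, 5 are members themselves, and 2 of the rest passed against control in each altered group, namely CG15506 and CG34296. Over all genes 10.2% passed against control in rbf1 mutant and 3.8% in PSC discs. Between the altered groups 2 of the rest passed, where 10.6% of all genes did. They were Dup99B and CG13148 (limma adjusted p = 0.0393 and 0.047).

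Obp49a, which in adult taste sensilla acts in the suppression of sweet responses by bitter compounds, was lower in PSC discs. It stood at 12.17, 12.32 and 12.01 in PSC arrays, against 12.67, 12.68 and 12.50 in control arrays, and at 12.56, 12.50 and 12.49 in rbf1 mutant arrays. PSC arrays lay below both other groups, which overlapped. The log2 change in PSC discs was -0.45 (SE 0.084, limma adjusted p = 0.0242) and rbf1 mutant discs were 0.35 above PSC discs (limma adjusted p = 0.0346). The call against control was lost without PSC 1 (0.0778), PSC 3 (0.0539), control 1 (0.0828) or control 2 (0.0804). It was also lost with only the arrays compared (0.0874) and without moderation of the variance (0.0728), as limma adjusted p. The call between the altered groups was lost without any 1 of the 6 arrays but PSC 2 (limma adjusted p up to 0.11). Of the 15 alternatives tested for this call, 6 kept it.

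The Obp19 genes, which stand next to each other in the gene order, moved in different ways. Obp19d, known from adult antennae and taste organs, stood at 8.13, 8.12 and 7.83 in rbf1 mutant arrays, against 8.93, 8.82 and 9.17 in PSC arrays, with 8.52, 8.79 and 8.12 in control arrays. It was 0.95 lower in rbf1 mutant than in PSC discs (SE 0.170, limma adjusted p = 0.00925), while the differences from control, -0.45 in rbf1 mutant and 0.50 in PSC discs, did not pass. Its probe set is also of the _s_at type. Obp19c stood at 5.87, 6.03 and 5.90 in PSC arrays and at 5.63, 5.54 and 5.57 in control arrays, a rise of 0.36 (SE 0.073, limma adjusted p = 0.0337). In rbf1 mutant arrays it stood at 5.79, 5.55 and 5.64, lower than in PSC discs by 0.28 (limma adjusted p = 0.0474). The control and rbf1 mutant means of Obp19c, 5.58 and 5.66, lie under the near-background limit. With either group set at that limit, the level in PSC discs was at least 1.14-fold higher. The Obp19c call against control was lost without any 1 of the 6 arrays (limma adjusted p up to 0.119), and the call between the altered groups without any 1 but rbf1 1 (limma adjusted p up to 0.148). Each of these calls was kept in 4 of the 14 alternatives tested. The second Obp19c probe set lay near 3.6 in all groups and did not differ beyond its error.

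Obp19a rose by 0.37 in rbf1 mutant discs (SE 0.091, limma adjusted p = 0.0399), at 5.72, 5.65 and 5.65 in rbf1 mutant arrays, against 5.52, 5.31 and 5.11 in control arrays, with 5.50, 5.47 and 5.45 in PSC arrays. All of these values lie under the near-background limit. Its call was lost without any 1 of the 6 arrays but control 1 (limma adjusted p up to 0.119), and was kept in 3 of 13 alternatives. The mean of its probe sets rose by 0.71 (limma adjusted p = 0.00227). The probe set not used was 1.06 higher in rbf1 mutant than in control discs (limma adjusted p = 0.00358). Against PSC discs this set was 0.62 higher (limma adjusted p = 0.0437), both values over all probe sets. Obp19b did not pass, at 5.42 ± 0.10 in rbf1 mutant, 5.39 ± 0.07 in PSC and 5.40 ± 0.03 in control discs (SD, n = 3).

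Of the 25 odorant binding protein genes above the limit, 19 passed in no comparison. Those of the Obp56 number were the most numerous, with 6 of 9 measured genes above the limit. Obp56e stood at 12.03, 11.44 and 12.17 in rbf1 mutant arrays, 12.38, 12.40 and 11.96 in PSC arrays and 13.09, 13.36 and 12.26 in control arrays. The rbf1 mutant arrays lay below those of control, by 1.02 on average (95% interval of the log2 difference -1.70 to -0.35), and the difference did not pass over all genes (limma adjusted p = 0.068). It passed among genes above the median level, with the salivary glue gene mean as a covariate, and without control 3. Obp56a, at 13.42 ± 0.29, 13.77 ± 0.12 and 13.88 ± 0.22, and Obp56d, at 13.74 ± 0.22, 13.71 ± 0.20 and 13.92 ± 0.07 (rbf1 mutant, PSC and control, SD, n = 3), did not pass. Obp56h, known from male mating behaviour, stood at 11.14 ± 0.13, 11.20 ± 0.28 and 11.25 ± 0.24 in the same order, with overlapping groups. Obp44a, known from glia of the brain, stood at 11.75 ± 0.35 in rbf1 mutant, 12.17 ± 0.25 in PSC and 11.84 ± 0.16 in control discs. Obp99c was 7.81 ± 0.38 in PSC discs and 6.95 ± 0.37 in control discs, which is 0.86 higher and missed the threshold (limma adjusted p = 0.0873).

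The other odorant binding protein genes above the limit are given as mean ± SD of 3 arrays. Obp18a stood at 7.002 ± 0.09 in rbf1 mutant, 7.33 ± 0.26 in PSC and 7.45 ± 0.22 in control discs. Obp46a stood at 8.09 ± 0.27 in rbf1 mutant, 7.65 ± 0.38 in PSC and 8.03 ± 0.20 in control discs. Obp47b stood at 6.25 ± 0.30 in rbf1 mutant, 6.41 ± 0.18 in PSC and 6.52 ± 0.15 in control discs. The rbf1 mutant arrays of Obp18a lay below those of control, and the other groups overlapped control. Obp50d stood at 7.38 ± 0.42 in rbf1 mutant, 7.21 ± 0.45 in PSC and 7.31 ± 0.06 in control discs. Obp50e stood at 8.15 ± 0.18 in rbf1 mutant, 8.24 ± 0.23 in PSC and 7.92 ± 0.32 in control discs. Obp56b stood at 11.37 ± 0.13 in rbf1 mutant, 11.33 ± 0.32 in PSC and 11.79 ± 0.17 in control discs. The rbf1 mutant arrays of Obp56b lay below those of control, and the other groups overlapped control. Obp56c stood at 8.16 ± 0.91 in rbf1 mutant, 7.84 ± 0.61 in PSC and 7.95 ± 0.55 in control discs. Obp58b stood at 7.62 ± 0.38 in rbf1 mutant, 6.96 ± 0.57 in PSC and 7.45 ± 0.32 in control discs. Obp58d stood at 7.82 ± 0.19 in rbf1 mutant, 7.61 ± 0.43 in PSC and 8.002 ± 0.20 in control discs. The arrays of each altered group overlapped those of control for Obp50d, Obp50e, Obp56c, Obp58b and Obp58d. Obp83g stood at 9.60 ± 0.11 in rbf1 mutant, 9.60 ± 0.15 in PSC and 9.88 ± 0.20 in control discs. None passed in any comparison (limma adjusted p from 0.103 to 0.998). The ionotropic receptor gene Ir100a, near background, stood at 4.96 ± 0.12 in rbf1 mutant discs, against 4.68 ± 0.15 in control discs, a log2 change of 0.29 (limma adjusted p = 0.16).

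**Figure D4:**
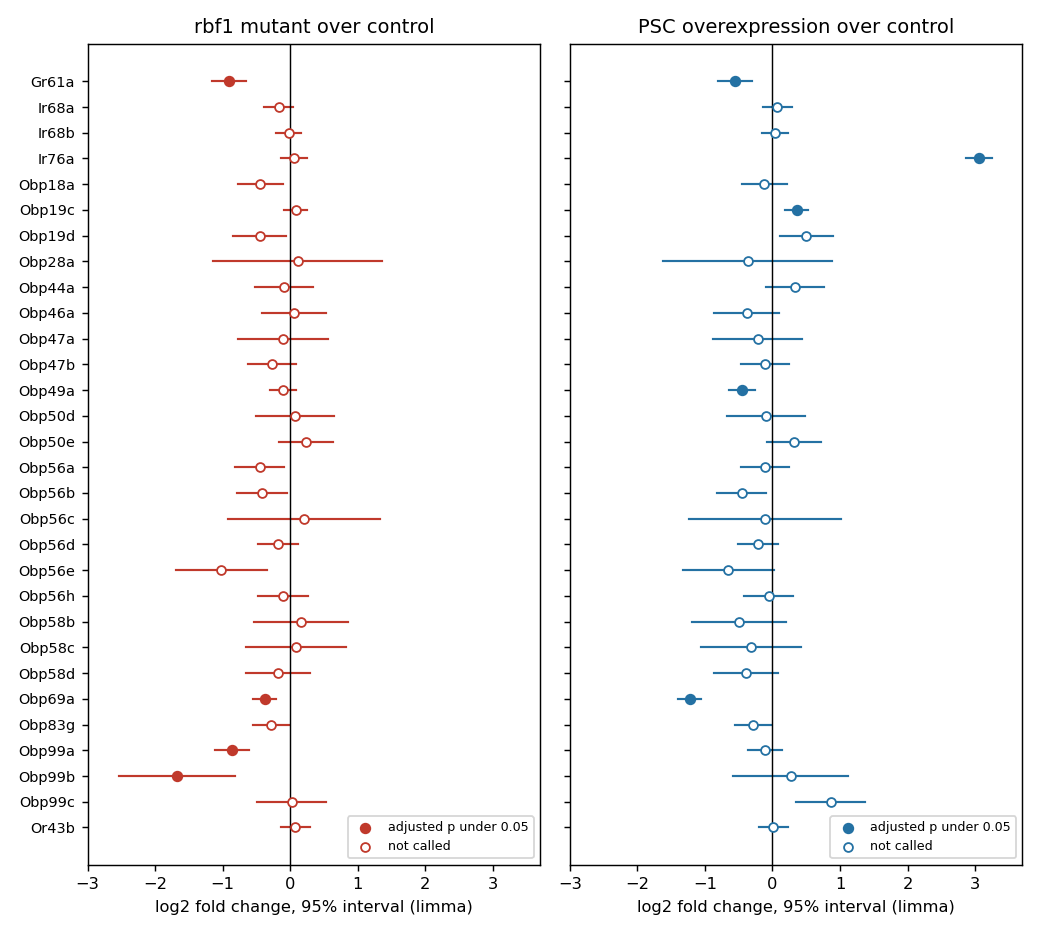
Log2 fold change with its 95% interval (limma) for the 30 members above the near-background limit, for rbf1 mutant over control (left) and PSC overexpression over control (right); filled points passed an adjusted p of 0.05. Most intervals cross 0, Ir76a stands at 3.06 in the right panel, and Obp99b at -1.68 in the left. Both panels use the same control arrays.

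Single arrays differed more than groups for a number of odorant binding proteins. The pooled SD within groups was over 0.3 for 10 members, all of them odorant binding proteins, while its median was 0.109 for the receptors and 0.095 over all genes. Obp28a, an odorant binding protein of the adult antenna, stood at 9.57, 10.62 and 11.22 in rbf1 mutant arrays, 9.56, 9.47 and 10.95 in PSC arrays and 9.58, 10.85 and 10.66 in control arrays. Its range inside each group was over 1 log2 unit, and all 3 groups overlapped. Obp58c stood at 9.97, 10.26 and 10.98 in rbf1 mutant arrays, 9.55, 9.84 and 10.59 in PSC arrays and 9.96, 10.47 and 10.50 in control arrays, and Obp47a ran in a like order. Replicate 3 was the highest of its group for 9 of the 10 in rbf1 mutant discs and for 9 of the 10 in PSC discs. In control discs it was the highest for 6, and replicate 1 was the highest for none. These 10 were picked by their spread. Over all 30 members above the limit, replicate 3 was the highest for 16 in rbf1 mutant, 13 in PSC and 10 in control discs. Replicate 2 was the highest for 13 of the 30 in PSC and 16 in control discs. The fat body marker mean was highest in replicate 3 of each group. The salivary gland marker mean varied inside groups too, at 5.81, 10.65 and 8.17 in rbf1 mutant arrays. It was 9.78, 8.44 and 11.77 in PSC arrays and 6.20, 12.71 and 11.93 in control arrays. The part of either signal in the spread of these members was not tested. The 95% interval of Obp28a in rbf1 mutant against control ran from -1.14 to 1.36, so a change of 2-fold either way was not excluded for it.

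**Figure D5:**
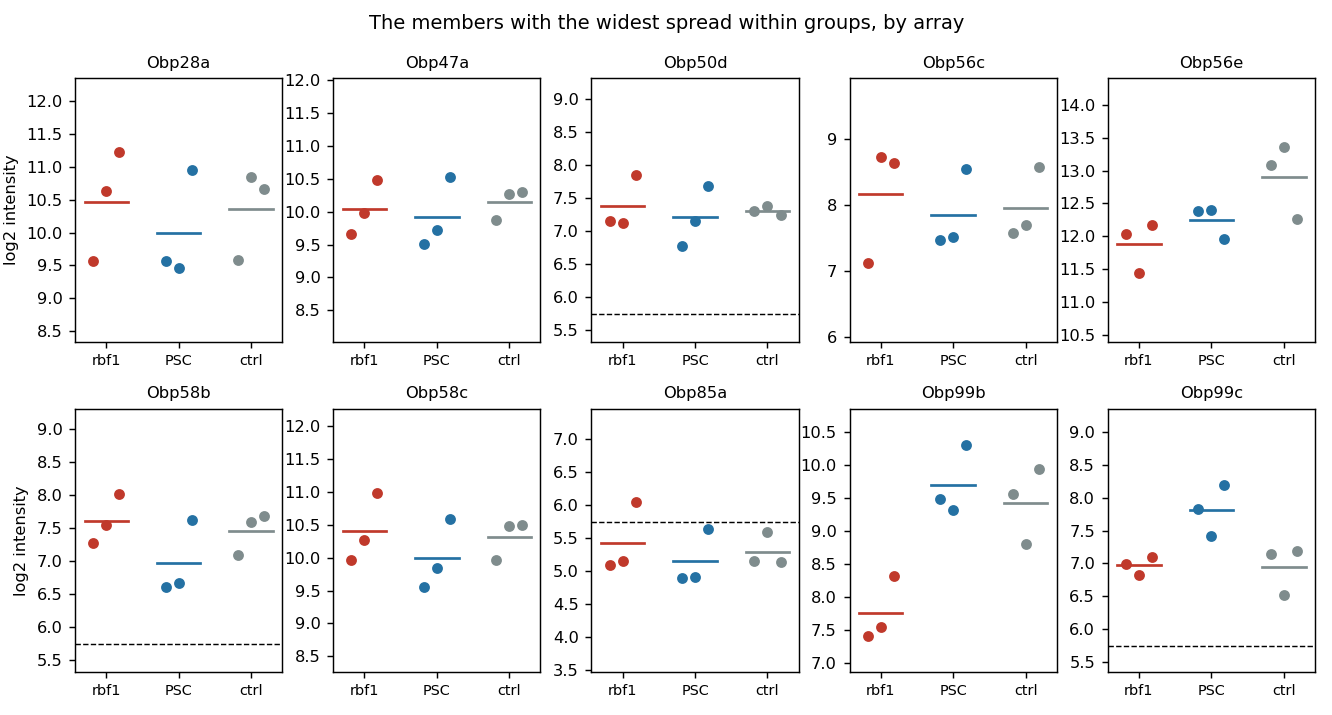
Log2 intensity of the 10 members whose pooled SD within groups was over 0.3, with 1 point per array in replicate order for rbf1 mutant (left), PSC (middle) and control (right, ctrl), a bar at each group mean and the near-background limit dashed where it falls in the panel. Replicate 3 is the highest rbf1 mutant and PSC point in 9 of the 10 panels each, and the groups overlap for most genes.

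Other genes of chemosensation were taken from written lists. Of 33 measured accessory proteins and channels, 23 were near background, among them Orco, the pheromone binding protein gene lush and Snmp1, a membrane protein of pheromone-sensing neurons. In rbf1 mutant against control discs 1 was higher, CheA29a by 0.37 (limma adjusted p = 0.043), and 1 was lower, Snmp2 by 0.42 (SE 0.073, limma adjusted p = 0.00815). Over all genes 6.31% were higher and 3.92% lower. CheA29a was near background, at 4.73 in rbf1 mutant, 4.79 in PSC and 4.36 in control discs. In PSC against control discs CheA29a was higher by 0.43 (limma adjusted p = 0.047), and ppk28, the channel of water taste, and the TRP channel gene wtrw were lower. Over all genes 1.42% were higher and 2.38% lower in this comparison. ppk28 stood at 6.25, 6.06 and 6.01 in PSC arrays, against 6.68, 6.71 and 6.51 in control arrays, with no overlap, and fell by 0.53 (SE 0.092, limma adjusted p = 0.0177). The list's median was -0.02 in rbf1 mutant and 0.02 in PSC discs against control.

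Of 18 measured regulators of chemosensory neurons, 16 were above the limit. As background, many of these genes are also known from eye and antennal disc development. In rbf1 mutant discs dan fell by 0.23 against control and none rose, where 6.31% of all genes rose and 3.92% fell. In PSC discs 0 rose and 0 fell by limma against control, where 1.42% of all genes rose and 2.38% fell, and the median was -0.08. Between rbf1 mutant and PSC discs 1 was lower, ato by 0.52 (limma adjusted p = 0.00996), and 0 were higher. Over all genes 3.66% were lower and 6.91% higher there. Of the 12 measured ionotropic glutamate receptors, from which the ionotropic receptors descend, 7 were near background. Against control, GluRIIB alone passed in rbf1 mutant discs, 0.32 higher. Ekar, a kainate-type subunit, alone passed in PSC discs, 0.44 lower (SE 0.086, limma adjusted p = 0.0295). Between the altered groups 1 was higher and 1 lower. The shares of all genes given for the regulators hold here too, and with 12 genes such counts do not set the list apart.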

How the data were processed

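The deposited table holds log2 intensities per probe set, which the authors made with RMA, per the submitters' processing notes (version not given in the sources used here). RMA corrects background, normalizes between arrays and compresses differences near background. Values ran from 2.86 to 14.85. The main fit applied no normalization beyond RMA, and centring each array on its median was run as an alternative. Of 18952 probe sets, 183 controls were left out. Of the others, 13647 list 1 gene, 402 list several and 4720 list none. The brightest set of each gene, by its mean over all 9 arrays, gave 11983 genes. Symbols were updated by gene identifier through RefSeq (11894 matched), and 20 of 228 symbols that meet the rule have no set of their own here. The near-background limit used a Gaussian kernel density (scipy 1.17.1) for the mode and the values below it, mirrored, for the SD.

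Group means were fitted over the 9 arrays (6 residual degrees of freedom) by limma (version 3.58.1, under R 4.3.3), with eBayes and Benjamini-Hochberg adjustment over all 11983 genes, with a threshold of 0.05. The fit was tested on simulated data. Alternatives were another scaling, probe set rule, filter, variance model, block, covariate and leaving out each array. Named members were those called, those above the limit, the coreceptors, Ir76a and Obp99b, and the 3 largest changes each way. The members, the lists and the salivary glue covariate were chosen with earlier results of these data known. Folds given as "at least" set the group under the near-background limit at that limit, a rule chosen after the values were seen.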

Additional observations from a re-analysis of the deposited data

Results flagged for a closer look

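Members whose difference between rbf1 mutant and PSC discs passed by limma differ in their change from control, since both altered groups share the control arrays. On the log2 scale, as rbf1 mutant minus PSC, these were Ir76a at -2.997, Obp99b at -1.95, Obp19d at -0.95, Obp99a at -0.76, Obp19c at -0.28, Obp49a at 0.35, Or47a at 0.67 and Obp69a at 0.85. A signal outside the main measurement was seen in the probe set of Obp19a that was not used, which was 1.06 higher in rbf1 mutant than in control discs, at 5.63, 5.78 and 5.31 against 4.53, 4.53 and 4.49 (SE 0.153, limma adjusted p = 0.00358 over all 18769 probe sets).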

How the results depend on the processing

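No called member changed sign under any alternative, and of 257 single results 196 kept their call and 61 lost it. Calls kept in every alternative that tested them were both of Ir76a, both of Obp99a, Gr61a in rbf1 mutant against control, Obp69a in PSC against control, and Obp69a, Obp19d and Or47a between the altered groups. The members called in rbf1 mutant against control numbered 3 among genes above the median level (14 members tested), 3 without moderation of the variance, and 3 to 7 with 1 array left out (3 without rbf1 3). In PSC against control they numbered 1 and 2 under the first 2 of these and 2 to 3 with 1 array left out, where Ir76a and Obp69a remained. Between the altered groups they numbered 4 among genes above the median level and 5 to 10 with 1 array left out (5 without rbf1 2). The replicate block gave 6, 6 and 11 members in the 3 comparisons and ended both Obp19c calls and no other call of a named member. Replicate numbers did not pair the arrays, since deviations of same-numbered arrays correlated from -0.44 to 0.59. The share of members near background was 92.3% with the limit at the median of all genes (48.7% of all genes), 80.8% at 2 SD, 86.5% at a limit of 6 and 85.6% to 86.1% with 1 array left out. Over all genes, calls numbered 787 to 969 with 1 array left out in rbf1 mutant against control (1226 in all arrays) and 843 to 986 between the altered groups (1266). In PSC against control they numbered 250 to 385 with 1 array left out, 275 with only the arrays compared and 272 without moderation (455 in the full model). The causes were not tested.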

Other observations

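Probe sets that list several genes gave no member its own value. The set shared by Obp57d and Cpr57A, a cuticle protein gene, stood at 8.40, 8.52 and 8.81 in rbf1 mutant arrays, 8.14, 8.30 and 8.20 in PSC arrays and 9.14, 9.58 and 8.68 in control arrays. It was 0.92 lower in PSC than in control discs, which did not pass (limma adjusted p = 0.0504 over all probe sets). The second set for the same pair lay near background in all groups. A set shared by Obp50b and Obp50c stood at 6.90 ± 0.04 in rbf1 mutant, 7.02 ± 0.25 in PSC and 7.13 ± 0.26 in control discs (SD, n = 3), and the set shared by Or19a and Or19b stood at 4.17, 4.27 and 4.16 as means of the same groups.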
